A study of Mus musculus with 16 samples.

Results

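Oxidative phosphorylation genes encode the enzymes of the inner mitochondrial membrane that pass electrons from nutrients to oxygen and use the resulting proton gradient to make ATP. They were taken as all genes that the deposited table assigns to the oxidative phosphorylation pathway, without the genes of the vacuolar proton pump, with at least 10 counts in at least 4 libraries. Of 55359 mouse genes listed, 120 carried the annotation and 109 of these passed the count rule. Of the 109, 13 are encoded in the mitochondrial genome and 96 in the nucleus. By symbol prefix the nuclear genes comprised 39 of complex I (Nduf), 4 of complex II (Sdh), 8 of complex III (Uqcr), 19 of complex IV (Cox), 15 of complex V (Atp5) and 11 others.

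The mice had received AAV, adeno-associated virus, a vehicle that carries a transgene into cells, and messenger RNA of their cerebral cortex was sequenced. The study addressed polyG proteins, glycine chains made from GGC repeats, in a mouse setting of neuronal intranuclear inclusion disease. The 4 groups, with 4 libraries each, are named after the construct: ATG-GGC11 carried 11 repeat units, and ATG-GGC100, TAG-GGC100 and ATG-GGN100dCT carried 100. ATG is the usual start codon, TAG is a stop codon and GGN stands for any glycine codon; the meaning of dCT is not stated by the labels. All groups received a construct by AAV, so the comparisons are between constructs and none is with uninjected cortex. The labels state no promoter, serotype, mouse strain, age, sex or number of animals behind a library. The p-values therefore rest on the spread between libraries, and that spread may be technical.

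Electrons enter at complex I from NADH or at complex II from succinate, pass through complex III and cytochrome c, and reach oxygen at complex IV, while complex V, the ATP synthase, uses the proton gradient. Complexes I, III, IV and V are built from both genomes, and complex II from nuclear genes only. Neurons depend heavily on this pathway, and fast-spiking interneurons that contain parvalbumin are known for a high mitochondrial content.

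The first set of sequences compares mitochondrially encoded genes with copies of them in the nuclear genome. The nuclear genome holds a long copied stretch of mitochondrial DNA on chromosome 1, annotated as 7 pseudogenes. In the transcripts of GENCODE M21 (GRCm38), the pseudogene Gm29216 matched the end of mt-Co1, the catalytic subunit 1 of complex IV, with 1 differing base among 483. Bases 1063 to 1162 of mt-Co1 are shown with that base in capitals, and below them the matching bases 10 to 109 of Gm29216; the substitution, counted from the first base of mt-Co1, is A1066T.
mt-Co1: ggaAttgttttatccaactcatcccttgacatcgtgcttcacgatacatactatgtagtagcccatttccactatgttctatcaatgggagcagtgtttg
Gm29216: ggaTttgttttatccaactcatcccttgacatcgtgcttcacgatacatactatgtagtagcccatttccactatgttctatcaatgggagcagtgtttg
The aligned parts of the other 6 copies had 0 differences: 681 bases of mt-Co2, 678 of mt-Atp6, 783 of mt-Co3, 342 of mt-Nd3, 294 of mt-Nd4l and 876 of mt-Nd4.

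The next set shows the 200 bases before the RefSeq start (GRCm38.p6) of 4 of the 6 nuclear genes that passed the test in a comparison, leaving out Vmac, which is no subunit, and the weakly expressed Cox6b2, beside Cox6a1, which holds both of the motifs searched. The motifs were the palindromic NRF1 motif, which is the first run of capitals in Cox6a1, and CCGGAAG, the core motif of GABPA. Both factors are known for activating respiratory genes. Matches on either strand are in capitals, so that CCGGAAG appears in Cox6a1 as its reverse complement. Ndufb2 lies at chr6:39592365-39592564 on the plus strand, Uqcr10 at chr11:4704345-4704544 on the minus strand, Cox7a2 at chr9:79759854-79760053 on the minus strand, Ndufv3 at chr17:31519915-31520114 on the plus strand and Cox6a1 at chr5:115348959-115349158 on the minus strand.
Ndufb2: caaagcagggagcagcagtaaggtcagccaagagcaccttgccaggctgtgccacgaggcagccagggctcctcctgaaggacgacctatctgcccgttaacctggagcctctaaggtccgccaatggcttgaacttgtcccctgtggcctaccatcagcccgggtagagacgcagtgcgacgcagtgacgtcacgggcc
Uqcr10: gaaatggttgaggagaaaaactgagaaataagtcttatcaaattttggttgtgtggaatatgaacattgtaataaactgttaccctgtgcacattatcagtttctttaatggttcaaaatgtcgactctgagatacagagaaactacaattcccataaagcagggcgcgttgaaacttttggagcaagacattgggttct
Cox7a2: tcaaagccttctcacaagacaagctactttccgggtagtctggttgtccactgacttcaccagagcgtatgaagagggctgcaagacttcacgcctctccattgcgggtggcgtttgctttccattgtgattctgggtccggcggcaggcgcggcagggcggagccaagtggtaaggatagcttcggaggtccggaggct
Ndufv3: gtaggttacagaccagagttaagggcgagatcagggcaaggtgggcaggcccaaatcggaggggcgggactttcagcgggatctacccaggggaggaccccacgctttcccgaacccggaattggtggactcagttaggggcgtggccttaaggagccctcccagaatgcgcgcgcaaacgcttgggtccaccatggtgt
Cox6a1: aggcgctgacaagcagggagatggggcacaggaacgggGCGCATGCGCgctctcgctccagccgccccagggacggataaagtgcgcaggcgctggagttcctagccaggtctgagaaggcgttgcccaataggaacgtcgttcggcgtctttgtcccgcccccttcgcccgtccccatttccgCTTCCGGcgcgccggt
Over the 300 bases from 250 before to 50 after the start, 78 of the 96 nuclear genes had a sequence. The NRF1 motif was in 6 of them (7.69%), against 1.07% of the promoters of 27025 genes. These were Atp5g2, Atp5k, Cox6a1, Ndufa11, Uqcrc1 and Vmac. CCGGAAG was in 18 (23.1%), against 9.93% of all. Neither was in the windows of Ndufb2, Uqcr10, Cox7a2 or Ndufv3.

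The 16 libraries held 12838756 to 19131210 counts each, and the tests covered 17737 genes. Rows other than mouse genes, taken as the construct's, held 0.00358% to 0.00714% of counts in ATG-GGC11 and 0.000262% to 0.000543% in ATG-GGC100. They held 0.00107% to 0.00158% in TAG-GGC100 and 0.000878% to 0.00363% in ATG-GGN100dCT. What part these shares have in the comparisons was not tested. TAG-GGC100 replicate 4 stood apart: it was the highest of the 16 libraries for 49 of the 96 nuclear genes, with a median of 0.21 above the mean of all libraries on the log2 scale, where the others lay between −0.11 and 0.11. Calls and nuclear medians of the members in the comparisons with TAG-GGC100 are given with and without it. Summed FPKM of 5 excitatory neuron markers was 263 to 471, of 7 inhibitory neuron markers 350 to 509, of 6 striatal neuron markers 100 to 327, of 5 astrocyte markers 308 to 398, of 5 oligodendrocyte markers 393 to 908 and of 5 endothelial markers 26.8 to 47.9. The 5 microglia markers summed to 148 to 189 FPKM in ATG-GGC100 and to 75.9 to 119 in the others. The 5 hepatocyte markers summed to 17.5 to 20.1 FPKM in ATG-GGN100dCT and to 0.87 to 8.53 elsewhere, with Fgb and Serpina1c at 0 counts in ATG-GGC11. The 5 red blood cell markers ranged from 8.04 to 138 FPKM and the 5 muscle markers from 4.96 to 7.21. In bulk cortex, fewer cells of a type and less RNA per cell cannot be told apart.

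The nuclear genes were strongly expressed, with a median of 43.8 FPKM (counts scaled by exonic length and library total) against 3.91 over all genes tested. By complex the median level was 43.7 FPKM for complex I, 49.3 for complex II, 69.6 for complex III, 28.9 for complex IV and 60.4 for complex V. In complex I the levels ran from 1.54 FPKM for Ndufa4l2, a paralogue of Ndufa4, to 108 for Ndufa4 itself, a protein first placed in complex I and now known from complex IV. The core subunits Ndufs1 (15.8 FPKM) and Ndufv1 (48.7), which carry the electron path from NADH, were not among the highest. Sdha, the catalytic subunit of complex II, had 91.9 FPKM. In complex III Uqcrc1, a core protein, was the lowest at 47.9 FPKM and Uqcr10, a small accessory subunit, the highest at 123. Cox8a had the highest level of the nuclear genes, 361 FPKM, followed by Cox6a1 at 290, Cox4i1 at 267, Atp5a1 at 248.6, Atp5b at 228 and Cox6b1 at 208. FPKM depends on the exonic length in the table, which counts all annotated exons: 5628 bases for Ndufb2 and 584 for Uqcr10.

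**Figure D1:**
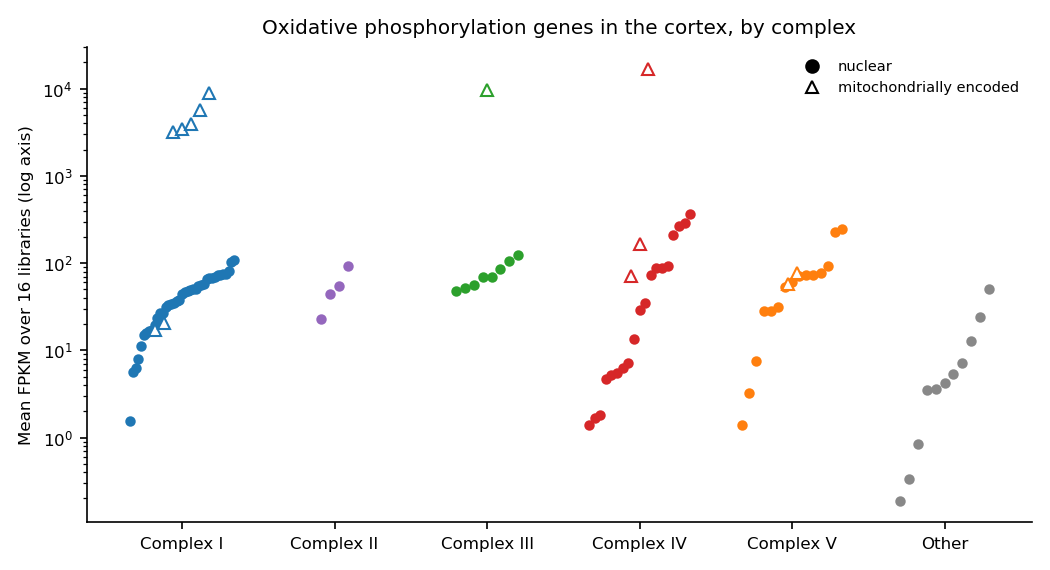
Mean FPKM over the 16 libraries (log axis) of the 109 genes, by complex; filled circles are nuclear and open triangles mitochondrially encoded genes, and each complex is sorted by level. The nuclear medians lie between 28.9 FPKM in complex IV and 69.6 in complex III, while 7 mitochondrial genes lie above all nuclear ones and 6 lie among them.

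The prefix took in some genes that are not subunits. Cox10 (7.24 FPKM), Cox11 (5.20), Cox15 (5.50) and Cox17 (4.75) are assembly factors of complex IV, and Cox5b-ps (28.9) is a pseudogene. Among the 11 others, Cyc1 (51.1 FPKM) encodes cytochrome c1, the haem subunit of complex III, and Ppa1 (24.2) and Ppa2 (3.59) are pyrophosphatases. Atp4a, the stomach proton pump, had 0.188 FPKM. The remaining 7, Tcf20, Zmat4, Lhpp, Vmac, Tom1l1, Smim27 and Pdzd9, carry the annotation in the table but encode no subunit of these complexes; they ran from 0.338 FPKM for Pdzd9 to 12.96 for Tcf20. Just inside the count rule were Atp4a, with at least 10 counts in 8 libraries, and Pdzd9, in 11; just outside was Cox7b2, whose highest count was 8. Of the other 10 left out, Cox8b, the muscle form of Cox8a, reached 3 counts, and a second row named Atp5o had 0.

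Of the mitochondrially encoded genes, 7 had 2445 to 19659 FPKM in every library and 6 had 9.97 to 235.9. mt-Co1 was the highest, with a mean of 17003 FPKM, followed by mt-Cytb of complex III at 9692 and the complex I subunits mt-Nd1 at 9027, mt-Nd2 at 5668, mt-Nd4 at 3930, mt-Nd6 at 3479 and mt-Nd5 at 3166. The 6 low ones are neighbours, from position 7013 to 10173 of the mitochondrial genome: mt-Co2 had 165 FPKM, mt-Atp6 77.9, mt-Co3 71.3, mt-Atp8 57.4, mt-Nd3 20.8 and mt-Nd4l 17.1. They encode subunits of complexes IV, V and I. The copies on chromosome 1 of 5 of these 6 genes had no differing base in the aligned parts; mt-Atp8, which lies between copied genes, was not compared. mt-Co2 had a mean of 1823 counts per library and its copy Gm28661 had 1278, mt-Atp6 had 861 and Gm10925 had 960, and mt-Co3 had 904 and Gm28437 had 628. No source used here says how reads that match both places were counted. The levels of these 6 are therefore uncertain, and their values below describe the rows as deposited. What part the copies have in the low levels was not tested. mt-Nd4, with 62.2% of its 50-base stretches in a copy, had a mean of 87501 counts. mt-Atp8 with mt-Atp6, mt-Nd4l with mt-Nd4, and mt-Nd5 with mt-Nd6 on the opposite strand also overlap, and no step that keeps the strand is named in the protocols.

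**Figure D2:**
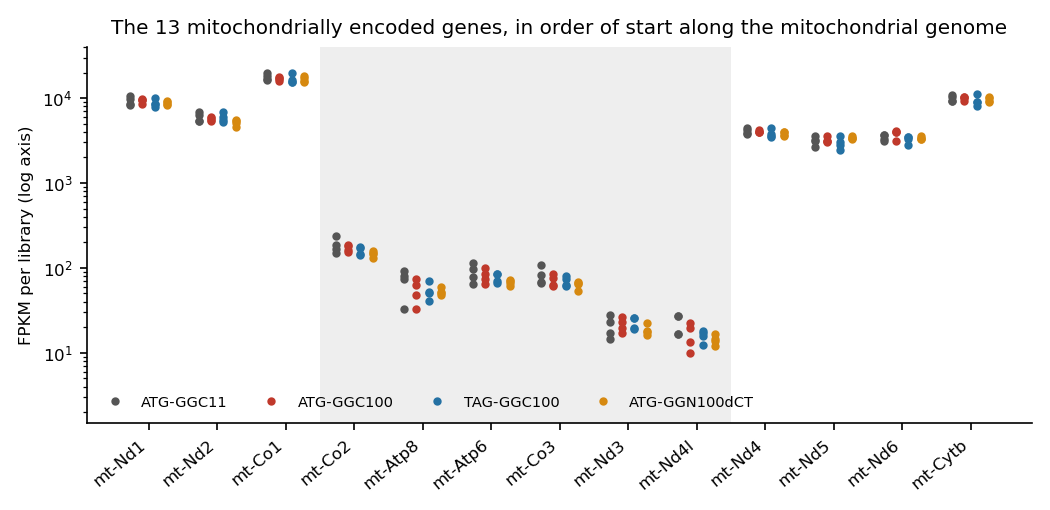
FPKM per library (log axis) of the 13 mitochondrially encoded genes, in order of start along the mitochondrial genome, coloured by construct; the shaded genes lie within the stretch repeated on chromosome 1. The shaded rows lie between 9.97 and 235.9 FPKM and the others between 2445 and 19659, with the 4 groups overlapping for every gene.

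Summed over genes, the mitochondrially encoded rows took 6.71% ± 0.611 (SD, n = 4) of the counts in ATG-GGC11, 6.59% ± 0.274 in ATG-GGC100, 6.36% ± 0.745 in TAG-GGC100 and 6.39% ± 0.364 in ATG-GGN100dCT. The 96 nuclear genes took 0.937% ± 0.0275 in ATG-GGC11, 0.925% ± 0.0384 in ATG-GGC100, 0.907% ± 0.0833 in TAG-GGC100 and 0.897% ± 0.0227 in ATG-GGN100dCT. The ranges of the 4 groups overlapped for both sums. By complex, the ATG-GGN100dCT libraries did not overlap those of ATG-GGC11 for complex III (0.0795% to 0.0850% against 0.0856% to 0.0910%) and complex V (0.286% to 0.301% against 0.302% to 0.317%), and overlapped them for complexes I, II and IV. These shares had no test of their own. TAG-GGC100 replicate 4 had the highest nuclear share, 1.02%, and TAG-GGC100 replicate 2 the lowest, 0.845%. The 2 mitochondrial ribosomal RNAs, which are not among the 109 genes and are only partly retained by selection for poly(A), summed to 1.38% ± 0.0470 in ATG-GGC11, 1.09% ± 0.0827 in ATG-GGC100, 1.43% ± 0.267 in TAG-GGC100 and 1.06% ± 0.138 in ATG-GGN100dCT. mt-Rnr1 fell in ATG-GGN100dCT against ATG-GGC11 (log2 fold change −0.44 ± 0.12 SE, adjusted p = 0.0376) and mt-Rnr2 fell by 0.41 ± 0.11 (adjusted p = 0.0298). Both also fell against TAG-GGC100, in ATG-GGC100 (−0.47 ± 0.12, adjusted p = 0.0241, and −0.40 ± 0.11, adjusted p = 0.0307) and in ATG-GGN100dCT (−0.50 ± 0.12, adjusted p = 0.0183, and −0.45 ± 0.11, adjusted p = 0.0164). There the groups overlapped: mt-Rnr1 had 5405, 5688, 7597 and 7794 FPKM in TAG-GGC100, replicate 4 being the highest. No fit of these RNAs without that library is given here. In ATG-GGC100 against ATG-GGC11 the values were −0.41 ± 0.12 and −0.36 ± 0.11. They did not pass (adjusted p 0.0687 and 0.0761), although the libraries did not overlap. None of the 13 messenger RNAs of the same genome passed the test in any of the 6 comparisons, by edgeR's quasi-likelihood test with Benjamini-Hochberg adjustment; DESeq2 called mt-Co2 in ATG-GGN100dCT against ATG-GGC11, and at an unadjusted p under 0.05 there were 5 lower in that comparison and 1, mt-Nd2, lower in ATG-GGN100dCT against TAG-GGC100. The difference between ribosomal and messenger RNAs was not tested.

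**Figure D3:**
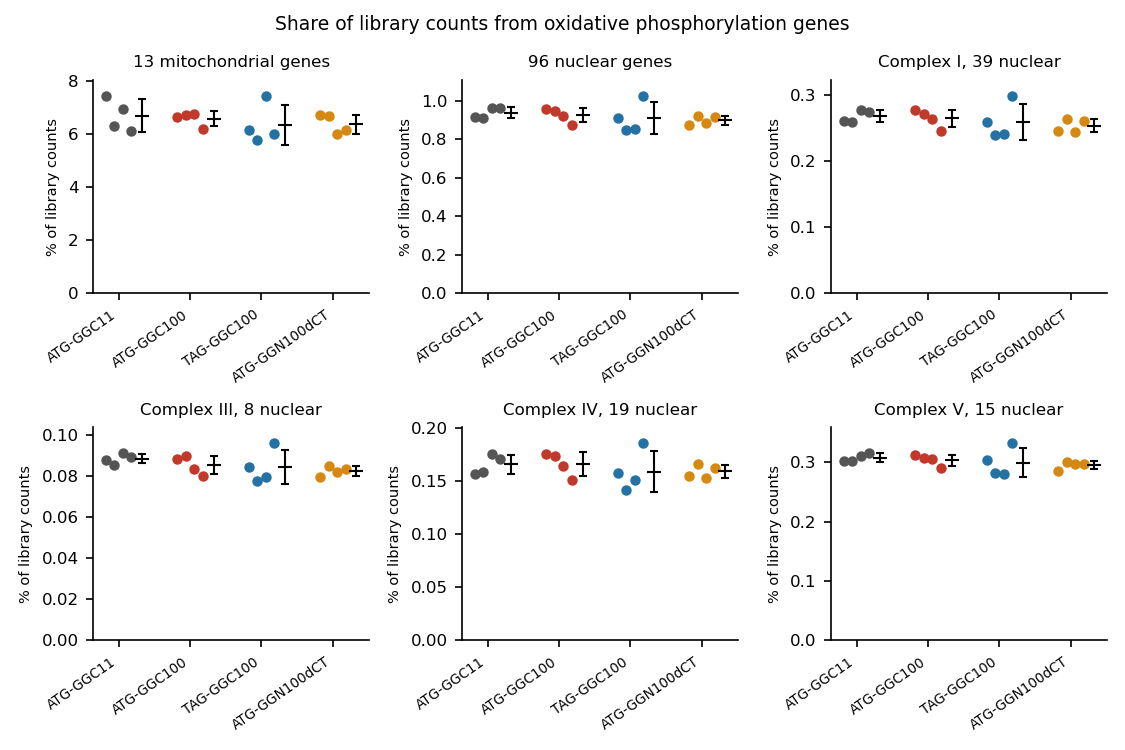
Percent of each library's counts from groups of oxidative phosphorylation genes; points are libraries and bars are mean ± SD of the 4 libraries of a construct. ATG-GGN100dCT lies just below ATG-GGC11 for complexes III and V and overlaps it in the other panels, and the highest nuclear share is that of TAG-GGC100 replicate 4 (1.02%).

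In ATG-GGN100dCT against ATG-GGC11, 3 small nuclear subunits of 3 different complexes fell, and the members as a whole had slightly lower values. The fallers were Ndufb2, Uqcr10 and Cox7a2, and 0 members rose. That is 2.75% of the 109 lower, near the background: 3.49% of all 17737 genes fell and 3.17% rose in this comparison, 6.66% in all. At an unadjusted p under 0.05, 39 members (35.8%) were lower, against 11.9% of all genes, and 3 were higher, against 11.9%. The log2 fold change was negative for 92 of 109 members (84.4%), against 49.0% of all genes. The median was −0.138 over the nuclear members and −0.209 over the mitochondrial ones, against 0.0055 over all genes. The mitochondrial median was −0.132 over the 7 high genes, which include the partly copied mt-Co1 and mt-Nd4, and −0.427 over the 6 uncertain low ones. Members share pathway, length class and libraries, so these counts are not independent observations. DESeq2 called 9 members lower, Atp5e, Atp5k, Cox8a, Ndufa7, Uqcrq and mt-Co2 besides the 3.

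Ndufb2 is an accessory subunit in the membrane arm of complex I. Its level was 8.50, 8.83, 8.46 and 8.94 FPKM in ATG-GGC11, 7.64, 7.36, 7.30 and 7.77 in ATG-GGC100, 8.09, 7.77, 8.30 and 10.2 in TAG-GGC100 and 6.46, 7.74, 6.87 and 6.80 in ATG-GGN100dCT. The ATG-GGC11 libraries lay above all those of ATG-GGN100dCT and of ATG-GGC100, and TAG-GGC100 replicate 4 was the highest of all. Ndufb2 fell in ATG-GGN100dCT against ATG-GGC11 by 0.36 ± 0.08 (SE) on the log2 scale (adjusted p = 0.0124), and the call was kept in all 27 alternatives (adjusted p 0.0016 to 0.0456). It also fell against TAG-GGC100 (−0.34 ± 0.08, adjusted p = 0.0139; −0.25 and 0.0495 without TAG-GGC100 replicate 4), and that call was lost without ATG-GGN100dCT replicate 4 (adjusted p = 0.0501) and with only the 8 libraries compared (0.0643). In ATG-GGC100 against ATG-GGC11 it differed by −0.25 ± 0.08 with an adjusted p of 0.0869. The gene spans chr6:39569508-39580316 in the deposited table and shares 146 bases with Braf on the other strand, whose mean count was 2449 against 721. It also shares 4022 bases with Gm42420 on the same strand (mean count 0.375) and 211 with Gm16272 on the other strand (1.19). How reads in shared bases were counted is not stated.

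Uqcr10 is a small accessory subunit of complex III. Its level was 132, 129.6, 151 and 133 FPKM in ATG-GGC11, 125.7, 131, 114.5 and 112 in ATG-GGC100, 121, 113, 116 and 141 in TAG-GGC100 and 112, 119, 105 and 121 in ATG-GGN100dCT. The ATG-GGN100dCT libraries all lay below those of ATG-GGC11 and overlapped the other groups. Uqcr10 fell by 0.30 ± 0.08 (adjusted p = 0.0244). The call was lost without ATG-GGC11 replicate 3, ATG-GGN100dCT replicate 3 or ATG-GGN100dCT replicate 4 (adjusted p 0.0523 to 0.0752), and with limma on log2(FPKM + 1) or log2(FPKM + 0.1) (0.0618 and 0.0606).

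Cox7a2 is the widely expressed form of a small complex IV subunit that has a muscle form, Cox7a1. Its level was 98.0, 92.7, 102 and 103 FPKM in ATG-GGC11, 93.9, 104, 91.2 and 84.1 in ATG-GGC100, 93.8, 84.8, 84.2 and 115 in TAG-GGC100 and 68.4, 89.5, 80.5 and 88.3 in ATG-GGN100dCT. ATG-GGN100dCT lay below ATG-GGC11 without overlap. Cox7a2 fell by 0.32 ± 0.09, close to the threshold (adjusted p = 0.0473). Leaving out any 1 ATG-GGC11 library, ATG-GGC100 replicate 1 or 3, TAG-GGC100 replicate 1 or ATG-GGN100dCT replicate 1, 3 or 4 ended the call (adjusted p 0.0524 to 0.116). It was also lost with library totals as scaling, the 1 FPKM filter, both limma settings and the replicate block (adjusted p 0.0596 to 0.101), so 12 of 27 alternatives kept it.

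Nuclear genes lower at an unadjusted p under 0.05 were 14 of 39 in complex I and 2 of 4 in complex II. They were 4 of 8 in complex III, 5 of 19 in complex IV and 7 of 15 in complex V. Of the 11 others 2 were lower, and of all genes 11.9% were. Median log2 fold changes of complexes I to V were −0.131, −0.078, −0.177, −0.137 and −0.177, and that of the others was −0.121. Libraries of the 2 groups did not overlap for 17 members on the lower side (15.6%) against 5.0% of all genes, and for 4 on the higher side (3.67%) against 9.21%. Of the 10 core subunits followed, Atp5a1 had −0.00 ± 0.05, Atp5b −0.09 ± 0.05, Sdha −0.01 ± 0.05, Uqcrc1 −0.04 ± 0.06 and Cox4i1 0.03 ± 0.09. The others had −0.12 ± 0.06 (Ndufs1), −0.16 ± 0.06 (Ndufv1), −0.17 ± 0.09 (Uqcrfs1, the Rieske iron-sulfur protein), −0.14 ± 0.06 (Cyc1) and −0.16 ± 0.09 (Cox5a). None of these 10 passed the test (adjusted p 0.133 to 0.968).

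Values that moved with this comparison are given beside it. The nuclear members had a median exonic length of 1778.5 bases against 3970 over all genes tested, and 3628 other genes with a mean above 1 on the log2 CPM scale and a length in the members' middle range (1077 to 3131 bases) had a median log2 fold change of −0.042, with 16.4% lower at an unadjusted p under 0.05. With each library's trend on length taken out, an alternative chosen after the data were seen, the nuclear median was −0.081 and the calls were 1 higher, Ndufv3, and 5 lower. Of the marker lists, 4 of 5 hepatocyte and 2 of 5 endothelial markers rose, 1 of 5 excitatory markers rose, and 3 of 5 astrocyte, 2 of 7 inhibitory neuron and 2 of 5 red blood cell markers fell. Their part in the members' values was not tested. The number of members called was 1 without ATG-GGC11 replicate 3, ATG-GGN100dCT replicate 3 or replicate 4, 5 without TAG-GGC100 replicate 2, 10 without ATG-GGN100dCT replicate 2 and 11 without TAG-GGC100 replicate 4, all lower; the nuclear median stayed between −0.155 and −0.119 when any 1 library was left out.

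In ATG-GGC100 against ATG-GGC11, the comparison of a long with a short GGC repeat, 0 members rose and 0 fell by edgeR, while 2.2% of all genes rose and 1.3% fell, 3.5% in all. These groups also differed in the share of counts from the construct rows, given above. At an unadjusted p under 0.05, 2 members were higher (1.83%, background 8.7%) and 6 lower (5.50%, background 8.01%), which is below the background on both sides. DESeq2 called 1 member, Cox6a2, lower. The groups did not overlap for 2 members on the higher side (background 8.09%) and 3 on the lower (background 3.22%). Of the 109, 97 had a 95% interval that stayed within a 1.5-fold change, against 11399 of all 17737 genes. In ATG-GGN100dCT against ATG-GGC11 this held for 91 members and for 10952 of all genes. The sign was negative for 83 members (76.1%), against 50.3% of all genes. The median was −0.067 over nuclear and −0.107 over mitochondrial genes (−0.052 over the 7 high ones, −0.209 over the 6 low ones). Without ATG-GGC100 replicate 4 the nuclear median was −0.0162, and over all single libraries left out the mitochondrial one ran from −0.152 to −0.0285. Of the mitochondrial genes, mt-Co1 had −0.11 ± 0.08, mt-Nd1 −0.06 ± 0.08 and mt-Cytb −0.03 ± 0.09. Leaving out TAG-GGC100 replicate 4 gave 2 calls, Ndufb2 (−0.26, adjusted p = 0.028) and Atp5g1 (−0.26, adjusted p = 0.0354), and leaving out ATG-GGN100dCT replicate 2, 3 or 4 gave 1. Beside this, 3 of 5 microglia markers rose, C1qa by 1.24 ± 0.13, and 3 of 7 inhibitory neuron markers fell while 1, Vip, rose.

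Cox6a2 came nearest to the threshold there. It is the muscle form of subunit 6a of complex IV, and in mouse brain it is known from parvalbumin interneurons. Its level was 7.40, 7.61, 11.3 and 6.76 FPKM in ATG-GGC11, 5.06, 3.34, 5.24 and 3.14 in ATG-GGC100, 7.87, 6.79, 6.28 and 8.39 in TAG-GGC100 and 6.24, 8.29, 2.63 and 3.58 in ATG-GGN100dCT. All 4 ATG-GGC100 libraries lay below all libraries of ATG-GGC11 and of TAG-GGC100, while ATG-GGN100dCT was spread over both ranges. The log2 fold change against ATG-GGC11 was −1.02 ± 0.28 with an adjusted p of 0.0509, which did not pass. It passed in 7 of 27 alternatives, DESeq2 among them (adjusted p = 0.0112; range over the alternatives 0.0112 to 0.153). Against TAG-GGC100 it was −0.84 ± 0.28 (adjusted p = 0.0779), with DESeq2 giving 0.0347.

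Pvalb, the gene of parvalbumin, had 70.5, 52.6, 71.2 and 63.7 FPKM in ATG-GGC11, 44.6, 24.9, 30.2 and 27.4 in ATG-GGC100, 58.0, 55.2, 50.2 and 81.6 in TAG-GGC100 and 43.2, 44.1, 21.9 and 36.0 in ATG-GGN100dCT. As for Cox6a2, the ATG-GGC100 libraries lay below those of ATG-GGC11 and TAG-GGC100. Pvalb fell in ATG-GGC100 by 1.06 ± 0.24 against ATG-GGC11 (adjusted p = 0.0260) and by 0.98 ± 0.24 against TAG-GGC100 (adjusted p = 0.0254), and in ATG-GGN100dCT by 0.87 ± 0.24 against ATG-GGC11 (adjusted p = 0.0443). Its part in the Cox6a2 values was not tested. The counts behind Cox6a2 were low, with a mean of 68.8 per library, and its gene lies within Itgad on the other strand, which had 5.56.

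Between TAG-GGC100 and ATG-GGC11 0 members passed by edgeR or DESeq2, and 0 genes rose and 1 fell (0.00564%) among all 17737. At an unadjusted p under 0.05 there were 0 members higher and 2 lower (1.83%, background 3.43%), Ndufv3 with −0.16 ± 0.07 and Cox8a with −0.16 ± 0.07. No member's libraries separated the groups, where 2.14% of all genes did on the higher and 1.96% on the lower side. The interval stayed within 1.5-fold for 99 of 109 members, against 11981 of all 17737 genes. The sign was nevertheless negative for 89 members (81.7%, background 50.8%). Medians were −0.060 over nuclear and −0.099 over mitochondrial genes (−0.083 over the 7 high ones, −0.232 over the 6 low ones). Without TAG-GGC100 replicate 4, which was high for most members, 31 members (28.4%) were lower at an unadjusted p under 0.05, against 3.56% of all genes, and the nuclear median was −0.128; 0 passed the adjusted test. Without TAG-GGC100 replicate 2 or 3 the nuclear median was instead −0.0196 or −0.0225, with 0 and 5 members lower at an unadjusted p under 0.05. This comparison, like the 2 before it, used the same ATG-GGC11 libraries.

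In ATG-GGC100 against TAG-GGC100, Ndufv3 and Vmac rose and 0 members fell, 1.83% of members higher against 4.05% of all genes, while 3.39% of all genes fell, 7.44% in all. At an unadjusted p under 0.05 there were 3 members higher and 4 lower, against 12% and 11.3% of all genes. The groups did not overlap for 2 members on the higher side (background 9.62%) and 1 on the lower (background 3.91%). The sign was negative for 59 members, against 49.3% of all genes. The median was −0.011 over nuclear and 0.0475 over mitochondrial genes, 8 of 13 of which were positive. It was 0.0503 over the 7 high mitochondrial genes and −0.0019 over the 6 low ones. Without TAG-GGC100 replicate 4 the nuclear median was 0.0586, the opposite sign, and the calls were Ndufv3 higher and Tcf20 lower (−0.29 ± 0.08, adjusted p = 0.0429). Over all single libraries left out the nuclear median ran from −0.0499 to 0.0586. DESeq2 called 4, Cox6a2 and Atp5g1 lower besides Ndufv3 and Vmac. A single member was called without ATG-GGC100 replicate 1 or 3, 0 without ATG-GGC100 replicate 2 or TAG-GGC100 replicate 2 or 3, and 4 without ATG-GGN100dCT replicate 3. Beside this, 4 of 5 microglia markers and 1 of 5 astrocyte markers rose, and 2 of 7 inhibitory neuron and 2 of 5 endothelial markers fell.

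Ndufv3 encodes a small subunit of the NADH-binding part of complex I. Its level was 14.6, 13.4, 15.3 and 13.9 FPKM in ATG-GGC11, 16.1, 17.7, 15.5 and 15.6 in ATG-GGC100, 13.9, 11.72, 11.96 and 13.82 in TAG-GGC100 and 17.29, 16.01, 16.65 and 17.48 in ATG-GGN100dCT. ATG-GGC100 and ATG-GGN100dCT lay above both other groups without overlap. Ndufv3 rose by 0.30 ± 0.07 in ATG-GGC100 against TAG-GGC100 (adjusted p = 0.0159), a call lost without ATG-GGC100 replicate 2 or TAG-GGC100 replicate 2 or 3 (adjusted p 0.0512 to 0.0761). It rose by 0.35 ± 0.07 in ATG-GGN100dCT against TAG-GGC100 (adjusted p = 0.0069), kept in all 27 alternatives (0.0003 to 0.0349). Against ATG-GGC11 the values were 0.13 ± 0.07 in ATG-GGC100 and 0.19 ± 0.07 in ATG-GGN100dCT, which did not pass (adjusted p 0.354 and 0.103). It lies at chr17:31739089-31750305 in the deposited table, and its transcript shared no 50-base stretch with another gene.

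Vmac encodes a coiled-coil protein that binds intermediate filaments, not a respiratory subunit, and shares 256 bases with Ndufa11 on the other strand, whose mean count was 900 against 168. It had 4.51, 3.44, 3.86 and 3.41 FPKM in ATG-GGC11, 5.02, 5.38, 4.80 and 4.54 in ATG-GGC100, 4.46, 3.38, 3.26 and 3.08 in TAG-GGC100 and 4.43, 4.31, 4.58 and 5.06 in ATG-GGN100dCT. The 4 ATG-GGC100 libraries lay just above the highest of TAG-GGC100. Vmac rose by 0.44 ± 0.12 (adjusted p = 0.0348), and the call was lost without ATG-GGC100 replicate 1, 2 or 3 or TAG-GGC100 replicate 2, 3 or 4 (adjusted p 0.0689 to 0.106), with only the 8 libraries compared (0.0567) and with the length trend taken out (0.0551). Reads from Vmac and Ndufa11 in the shared bases cannot be told apart without strand.

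In ATG-GGN100dCT against TAG-GGC100, Ndufv3 rose and Ndufb2 fell, 0.917% of members each way, against 4.3% of all genes higher and 4.4% lower, 8.69% in all. At an unadjusted p under 0.05 there were 4 members higher and 9 lower (8.26%), against 12.5% of all genes each way. The sign was negative for 85 members (78.0%, background 48.6%). Medians were −0.069 over nuclear and −0.071 over mitochondrial genes (−0.027 over the 7 high ones, −0.190 over the 6 low ones). Without TAG-GGC100 replicate 4 the nuclear median was −0.016 and the calls were Ndufv3 and Sdhb, the iron-sulfur subunit of complex II, higher and Ndufb2 lower. Without ATG-GGN100dCT replicate 4, 1 member was called. The groups did not overlap for 1 member each way, against 8.1% of all genes higher and 4.76% lower. Beside this, 4 of 5 hepatocyte markers, 1 of 5 excitatory neuron markers and 1 of 5 endothelial markers rose, and 1 of 7 inhibitory neuron and 1 of 5 astrocyte markers fell.

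In ATG-GGN100dCT against ATG-GGC100, the 2 constructs that differ in the repeat's codons and in dCT, Cox6b2 fell and 0 members rose, 0.917% of members lower against 1.19% of all genes, with 0.857% of all genes higher, 2.05% in all. At an unadjusted p under 0.05 there were 2 members higher (1.83%, background 8.36%) and 5 lower (4.59%, background 8.25%). The groups did not overlap for 0 members on the higher side (background 3.56%) and 1 on the lower (background 4.38%). The sign was negative for 88 members (80.7%, background 50.7%). Medians were −0.074 over nuclear and −0.146 over mitochondrial genes (−0.077 over the 7 high ones, −0.206 over the 6 low ones). With the length trend taken out the nuclear median was −0.0041. Beside this, 4 of 5 microglia and 3 of 5 astrocyte markers fell, and 4 of 5 hepatocyte markers and 1 of 7 inhibitory neuron markers rose.

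Cox6b2 is the testis form of a complex IV subunit, low in cortex. It had 1.12, 1.7, 1.68 and 1.9 FPKM in ATG-GGC11, 2.26, 1.67, 1.68 and 1.69 in ATG-GGC100, 1.67, 1.2, 1.16 and 1.05 in TAG-GGC100 and 1.31, 0.89, 0.59 and 0.82 in ATG-GGN100dCT. All ATG-GGN100dCT libraries lay below those of ATG-GGC100. Cox6b2 fell by 1.01 ± 0.26 (adjusted p = 0.0463). The call was kept in 12 of 27 alternatives (adjusted p 0.0242 to 0.155), and was lost without any 1 of the 4 ATG-GGC100 libraries, ATG-GGC11 replicate 2, 3 or 4, TAG-GGC100 replicate 2 or 3, or ATG-GGN100dCT replicate 2, 3 or 4 (adjusted p 0.0542 to 0.155), and also with only the 8 libraries compared, the replicate block or the length trend taken out.

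**Figure D4:**
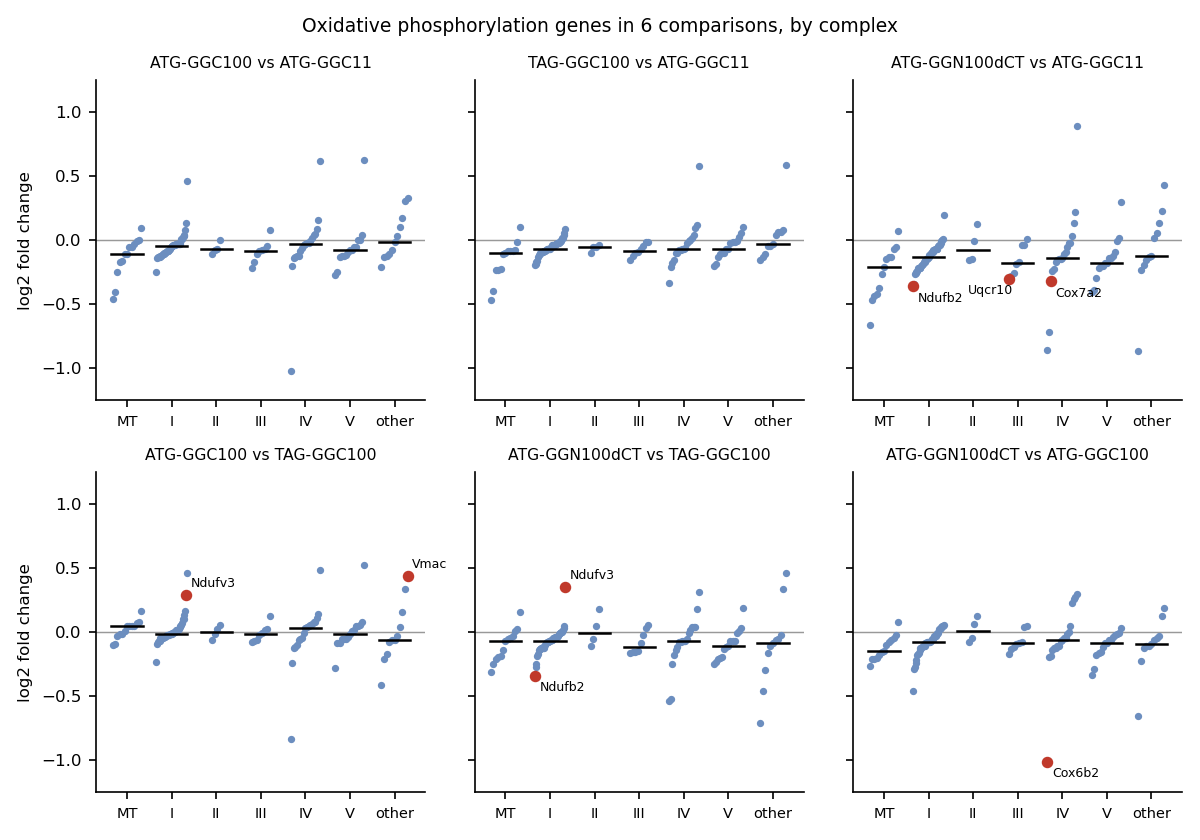
Log2 fold change (first named construct over the second) of the 109 genes in 6 comparisons, by complex, with the mitochondrially encoded genes under MT; lines are medians and red points passed an adjusted p of 0.05. The medians of MT and of complexes I to V are below 0 in ATG-GGN100dCT against ATG-GGC11, where Ndufb2, Uqcr10 and Cox7a2 passed. The MT median there is −0.209, with −0.132 over the 7 high genes and −0.427 over the 6 uncertain low ones.

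**Figure D5:**
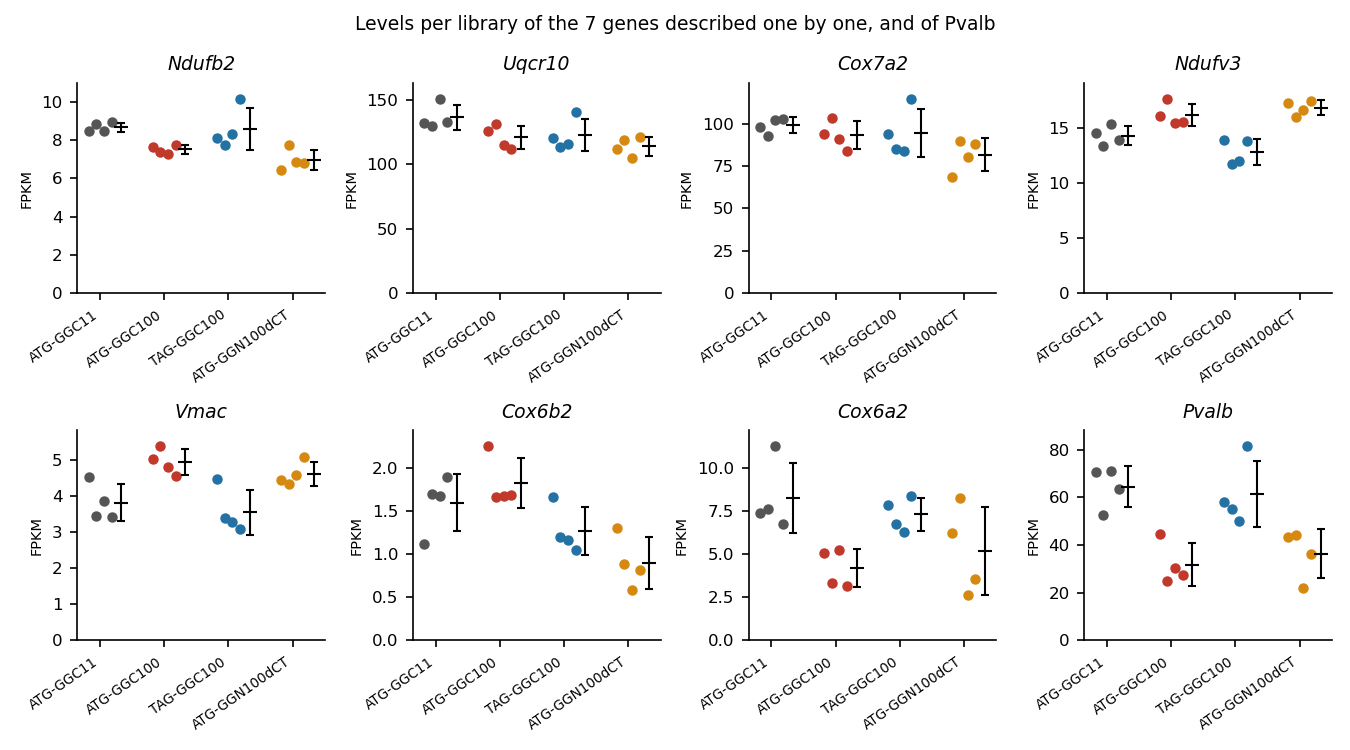
FPKM per library of 7 genes and of Pvalb; points are libraries and bars are mean ± SD of 4 libraries. Ndufb2 is lowest in ATG-GGN100dCT, Ndufv3 is higher in ATG-GGC100 and ATG-GGN100dCT than in the others, and Cox6a2 and Pvalb are lower in ATG-GGC100 than in ATG-GGC11 and TAG-GGC100.

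Isoform pairs showed the form common to most tissues in the lead throughout. Within the pair's summed FPKM, Cox4i2, the form induced by low oxygen, took 0.395% to 0.959% of Cox4i1 and Cox4i2, Cox6b2 took 0.289% to 0.934%, Ndufa4l2 took 0.684% to 2.45% and Cox7a1 took 0.834% to 3.67%. The share of Cox6a2 was 2.69% ± 0.544 in ATG-GGC11, 1.38% ± 0.314 in ATG-GGC100, 2.57% ± 0.195 in TAG-GGC100 and 1.76% ± 0.795 in ATG-GGN100dCT, while Cox6a1 itself differed by −0.04 ± 0.08 between ATG-GGC100 and ATG-GGC11. The share of Cox7a1 was 1.204% ± 0.318 in ATG-GGC11 and 2.77% ± 0.604 in ATG-GGN100dCT, where Cox7a1 differed by 0.89 ± 0.34 without passing (adjusted p = 0.119). Of the 3 genes of ATP synthase subunit c, whose mature proteins are identical, Atp5g3 took 87.7% to 89.9%, Atp5g1 7.70% to 11.01% and Atp5g2 1.02% to 2.38%. Atp5g2 differed by 0.63 ± 0.23 and Atp5g1 by −0.25 ± 0.09 in ATG-GGC100 against ATG-GGC11 (adjusted p 0.146 and 0.125).

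Of the factors known to drive these genes, none of Ppargc1a, Ppargc1b, Nrf1, Gabpa, Esrra, Tfam, Polrmt and Lrpprc passed the test in any of the 6 comparisons by edgeR. Ppargc1a, the coactivator of mitochondrial biogenesis, was at 8.57 ± 0.683 FPKM in ATG-GGC11 and 7.23 ± 0.210 in ATG-GGC100 (log2 fold change −0.29 ± 0.08, adjusted p = 0.0595). Esrra, a nuclear receptor that works with it, had 11.7 ± 0.533 and 9.77 ± 1.38 FPKM in the same groups (−0.30 ± 0.11, adjusted p = 0.149). Tfam, which packages and transcribes mitochondrial DNA, had 7.79 ± 0.449 and 7.97 ± 0.493 FPKM. In the list of 38 genes of mitochondrial biogenesis and mitochondrial DNA expression that were tested, 1 was called in each of 4 comparisons, and it was always Esrrg, a receptor related to Esrra. Esrrg fell in ATG-GGC100 by 0.48 ± 0.11 against ATG-GGC11 (adjusted p = 0.0218) and by 0.43 ± 0.11 against TAG-GGC100 (0.0254), and in ATG-GGN100dCT by 0.41 ± 0.11 against ATG-GGC11 (0.0367) and by 0.37 ± 0.11 against TAG-GGC100 (0.0496). In the same order 1.3%, 3.39%, 3.49% and 4.4% of all genes fell, so 1 of 38 is near the background.

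Of 54 assembly factors of the complexes, 0 rose and 3 fell in ATG-GGN100dCT against ATG-GGC11, with a median of −0.142. Of all genes 3.17% rose and 3.49% fell there, so the 3 calls are near the background. At an unadjusted p under 0.05, 1 factor was higher and 16 were lower, against 11.9% of all genes each way. The lower count is thus above the share of all genes and the higher one below, in a list chosen with earlier results of these data known. Of the 3628 other expressed genes in the members' middle length range, given above, 16.4% were lower. The log2 fold change was negative for 44 of the 54, against 49.0% of all genes. In these lists the brackets give the log2 fold change ± SE and edgeR's adjusted p. The 3 called were Coa3, which assembles complex IV (−0.31 ± 0.07, adjusted p = 0.0187), Higd2a (−0.25 ± 0.07, 0.042) and Ndufaf8, a factor of complex I (−0.52 ± 0.15, 0.0422). Against TAG-GGC100, ATG-GGN100dCT had Nubpl, which supplies iron-sulfur clusters to complex I, higher (0.54 ± 0.17, 0.0478) and Ndufaf5 lower (−0.30 ± 0.09, 0.043). At an unadjusted p under 0.05, 4 factors were higher and 11 lower there, against 12.5% of all genes each way. In the other 4 comparisons 0 assembly factors were called by edgeR; the counts at an unadjusted p under 0.05 were 0 higher and 4 lower in ATG-GGC100 and 0 and 3 in TAG-GGC100 against ATG-GGC11, 4 and 6 in ATG-GGC100 against TAG-GGC100, and 1 and 8 in ATG-GGN100dCT against ATG-GGC100. Over all genes the same shares were 8.7% and 8.01%, 3.44% and 3.43%, 12% and 11.3%, and 8.36% and 8.25%. Of 78 mitochondrial ribosome genes, 1 rose and 1 fell in ATG-GGN100dCT against ATG-GGC11, Mrps34 (0.435 ± 0.0959, 0.0126) and Mrpl12 (−0.41 ± 0.10, 0.0187), with a median of −0.072. Both counts of calls are below the shares of all genes, 3.17% and 3.49%. At an unadjusted p under 0.05, 1 ribosome gene was higher and 14 were lower, against 11.9% of all genes each way. The log2 fold change was negative for 57 of the 78, against 49.0% of all genes.

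Upstream of the chain, the pyruvate dehydrogenase kinases, which switch off the entry of pyruvate into the mitochondrion's cycle, were among the 26 genes listed. Pdk1 rose in ATG-GGC100 by 0.47 ± 0.08 against ATG-GGC11 (13.9 ± 0.403 and 9.72 ± 0.833 FPKM, adjusted p = 0.0014) and by 0.43 ± 0.08 against TAG-GGC100 (0.0025), and in ATG-GGN100dCT by 0.32 ± 0.08 against ATG-GGC11 (0.0237) and by 0.27 ± 0.08 against TAG-GGC100 (0.0369). Pdk2 rose only in the comparisons of ATG-GGN100dCT with ATG-GGC11 (0.40 ± 0.11, 0.0322) and TAG-GGC100 (0.46 ± 0.11, 0.0142) among the 6 tested. Pdk4 fell in ATG-GGN100dCT against ATG-GGC11 (−0.52 ± 0.12, 0.0157), as did Pcx, pyruvate carboxylase (−0.41 ± 0.10, 0.0191). Pdp1, the phosphatase that opposes the kinases, fell against TAG-GGC100 in ATG-GGC100 (−0.58 ± 0.16, 0.0424) and in ATG-GGN100dCT (−0.74 ± 0.16, 0.0142). Suclg2 was higher in ATG-GGC100 than in TAG-GGC100 (0.47 ± 0.09, 0.0051) and lower in ATG-GGN100dCT than in ATG-GGC100 (−0.42 ± 0.09, 0.0225). In this list 1 gene rose and 0 fell in ATG-GGC100 and 2 rose and 3 fell in ATG-GGN100dCT against ATG-GGC11, with medians of −0.059 and −0.076. Of all genes 2.2% rose and 1.3% fell in the first and 3.17% rose and 3.49% fell in the second.

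Of 24 glycolysis rows tested, 1 rose in ATG-GGC100 against ATG-GGC11, where 2.2% of all genes did: Hk2, a hexokinase, from 0.637 ± 0.0640 to 1.10 ± 0.231 FPKM (0.76 ± 0.17, adjusted p = 0.0139). In ATG-GGN100dCT against ATG-GGC11, Gpi1 rose (0.24 ± 0.07, 0.0315) and Ldhb fell (−0.34 ± 0.10, 0.0481), with a median of 0.057. Among 23 carriers and related genes, Ucp2, an inner membrane carrier, rose in that comparison (0.83 ± 0.22, 0.0394) and Gpd2, which feeds electrons from glycerol phosphate into the chain, fell (−0.29 ± 0.07, 0.0268). Among 29 genes of mitochondrial stress response and quality control, Atf4, a transcription factor of the stress response, fell by 0.48 ± 0.13 in both ATG-GGC100 and ATG-GGN100dCT against ATG-GGC11 (adjusted p 0.0466 and 0.0347). Mthfd2, a mitochondrial folate enzyme, fell in ATG-GGC100 (−0.50 ± 0.14, 0.0493) and Atf5 in ATG-GGN100dCT (−0.41 ± 0.12, 0.0483). In TAG-GGC100 against ATG-GGC11 0 genes of these 7 lists were called by edgeR, with 1 to 3 members of each list but the stress list, which had 0, at an unadjusted p under 0.05. Against TAG-GGC100, ATG-GGC100 had 2 glycolysis rows higher, Hk2 and Slc16a1, and 2 lower, Pfkfb3 and Slc2a1, with 1 mitochondrial ribosome gene, Mrpl19, lower. ATG-GGN100dCT against TAG-GGC100 had Gpi1, Pfkl, Ucp2 and Mrps34 higher and Pfkfb3, Mrpl19, Mrpl42 and Hspd1, a mitochondrial chaperone, lower. Against ATG-GGC100 it had Phgdh, an enzyme of serine synthesis, lower (−0.41 ± 0.09, adjusted p = 0.0234). For these last lists too, the shares of all genes that rose and fell were 2.2% and 1.3% in ATG-GGC100 and 3.17% and 3.49% in ATG-GGN100dCT against ATG-GGC11, 4.05% and 3.39% in ATG-GGC100 and 4.3% and 4.4% in ATG-GGN100dCT against TAG-GGC100, and 0.857% and 1.19% in ATG-GGN100dCT against ATG-GGC100.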

How the data were processed

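Cortex RNA was measured in 4 libraries of each construct, 16 in all. Trizol was used for extraction, and poly(A) RNA was selected, per the labels' protocols, then fragmented, primed at random and amplified by PCR; no strand step is named. The submitters' processing notes name FastQC 0.10.1, cutadapt 1.9.1, GRCm39 and mm10; they name no aligner or counter. The deposited table gives, per the file headers, raw whole-number counts and the authors' FPKM values for each gene and library. Coordinates of genes are those of the table, which names no build. Groups were taken from the construct codes in the titles.

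Low genes were dropped by filterByExpr (minimum count 10), which left 17737. TMM scaling and the quasi-likelihood model came from edgeR 4.0.16 under R 4.3.3 (robust glmQLFit, two-sided glmQLFTest), all 16 libraries in 1 fit with the group as the term. A call needed an adjusted p of 0.05 by Benjamini-Hochberg over all genes within a comparison. The test was run on the counts. Errors of log2 fold changes are standard errors and those of levels are SD over 4 libraries. All 109 members passed the filter. The analysis was tested on simulated data. Alternatives were DESeq2 1.42.0, limma 3.58.1 on log2(FPKM + 1) and log2(FPKM + 0.1), median-ratio scaling, library totals, scaling without chromosome MT, no filter, at least 1 FPKM in 4 libraries, the 8 libraries compared alone, the replicate number as a block, a length correction added later, and leaving out each library. Replicate numbers were also checked for pairing.

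The members and the lists of 7 pathways and 10 cell types were chosen with earlier results of these data known. Genes described one by one followed a rule: all mitochondrial genes, up to 10 called nuclear members in each direction, 10 core subunits, isoform pairs, 8 regulators and up to 4 called genes of each other list. Cox6a2 is an isoform of the rule; Pvalb and the mitochondrial ribosomal RNAs were added after their values were seen, as were members named for a call by DESeq2 or with a library left out. Of the called genes of the other lists, 1 is not reported here. Promoters are from RefSeq (GRCm38.p6) and transcripts from GENCODE M21, matched by symbol.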

Additional observations from a re-analysis of the deposited data

Results flagged for a closer look

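A library was taken as far from the others of its group when its gap to the nearest one took up more of the group's whole range than Dixon's 95% critical value for 4 samples. Of 196 groups of 4 examined, 10 met this, and chance gives about 1 in 20. In ATG-GGC100, replicate 4 was low for mt-Nd6 (3103 FPKM, others 3960 to 4077, gap 0.88 of the range), for Atp5b (221 FPKM, others 228 to 229.8, 0.831) and for the share of all chromosome MT rows (7.24% of counts, others 7.82% to 7.89%, 0.888). Replicate 1 of that group was high for Cox6b2 (2.26 FPKM, others 1.67 to 1.69, 0.966) and for the mitochondrial ribosomal RNAs (1.22% of counts, others 1.04% to 1.07%, 0.855). In TAG-GGC100, replicate 3 was high for mt-Co1 (19659 FPKM, others 15525 to 16207, 0.835) and replicate 4 for Cox6b1 (248 FPKM, others 187 to 194, 0.888). In ATG-GGC11, replicate 3 was high for Uqcr10 (151 FPKM, others 129.6 to 133, 0.848) and Cox8a (416 FPKM, others 377 to 380.3, 0.928), and replicate 4 for Sdha (95.4 FPKM, others 91.5 to 91.8, 0.915).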

How the results depend on the processing

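The number of members called moved by more than 1.5 times under some alternatives. In ATG-GGC100 against ATG-GGC11 (0 called) it was 1 with DESeq2 and with median-ratio scaling, and 2 with only the 8 libraries compared and with the length trend taken out. In ATG-GGN100dCT against ATG-GGC11 (3 called) it was 9 with DESeq2, 6 with only the 8 libraries and 6 with the length trend taken out. In ATG-GGC100 against TAG-GGC100 (2 called) it was 4 with DESeq2, and in ATG-GGN100dCT against TAG-GGC100 (2 called) 1 with only the 8 libraries. In ATG-GGN100dCT against ATG-GGC100 (1 called) it was 0 with only the 8 libraries, with the length trend taken out and with the replicate block. Why the counts moved was not tested. Correlations of same-numbered libraries' deviations from their group means were −0.256 to 0.262. With means of only 4 libraries, such values cannot exclude a batch that same-numbered libraries share. With the replicate block 2 members were called in ATG-GGN100dCT against ATG-GGC11 and 3 in ATG-GGC100 against TAG-GGC100. Leaving out each library in turn gave 0 to 2, 0 to 0, 1 to 11, 0 to 4, 1 to 3 and 0 to 1 calls in the 6 comparisons, in the order ATG-GGC100, TAG-GGC100 and ATG-GGN100dCT against ATG-GGC11, ATG-GGC100 and ATG-GGN100dCT against TAG-GGC100, and ATG-GGN100dCT against ATG-GGC100. Medians moved beyond 1 SD between libraries in few cases. The nuclear median of ATG-GGN100dCT against ATG-GGC11 was −0.0894 with limma on log2(FPKM + 1) and −0.0814 with the length trend taken out; against ATG-GGC100 with that correction it was −0.0041 and the mitochondrial one −0.0406. The mitochondrial median of ATG-GGN100dCT against TAG-GGC100 ran from −0.185 to 0.0345 when 1 library was left out. Low counts limit Cox6b2, Cox7a1, Cox6a2, Atp4a and Pdzd9. The copied stretch limits 6 mitochondrial genes, and in part mt-Co1 and mt-Nd4, at any depth. Several nuclear members also share 50-base stretches of their transcript with genes elsewhere, such as Cox5b-ps (61.9% of them), Atp5h (47.9%) and Uqcrb (43.2%). Of the called members, Ndufb2 shared 0.069%, and Uqcr10, Cox7a2, Ndufv3, Vmac and Cox6b2 shared 0.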
